A study of Homo sapiens with 32 samples.

Results

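H1299 lung cancer cells in which SMARCA2 was knocked down by a short hairpin RNA (shRNA) and which expressed an ATPase dead SMARCA2 cDNA were compared with H1299 cells that carried the same hairpin and expressed a WT SMARCA2 cDNA. The comparison asks which transcripts depend on the ATPase activity of the added protein. The arrays were chosen by their titles alone, without measured values: 3 ATPase dead (ATPdead) and 3 WT arrays, 6 of the 32 arrays of the series. H1299 provided 24 arrays in 8 groups of 3, and A549, another lung cancer line, provided 8 arrays in 8 groups of 1.

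The hairpin, S2sh7, targets the ATPase domain of SMARCA2 per the labels, and it was the only SMARCA2 hairpin used. Its control, shLuc, targets luciferase, which human cells do not have. In H1299 each hairpin was combined with ATPase dead SMARCA2, with a bromodomain mutant (BRD) SMARCA2, with WT SMARCA2 and with GFP as the cDNA control, so that every line compared here carried both a hairpin and a transgene. The A549 arrays carried the same hairpins with the corresponding SMARCA4 cDNAs or GFP. The labels describe stable isogenic lines that received no treatment and give the same batch for all H1299 arrays. They call the 3 arrays of a group biological replicates without saying whether these came from separate cultures, so the p-values measure the spread between these samples, which may be technical. The labels do not say whether a line is 1 clone.

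SWI/SNF complexes use the energy of ATP hydrolysis to slide or evict nucleosomes at enhancers and promoters. SMARCA2 (also BRM) and SMARCA4 (also BRG1) are their alternative motor subunits, and a catalytically dead motor can still be built into the complex. H1299 and A549 are both known to lack working SMARCA4, which leaves SMARCA2 as their remaining SWI/SNF motor.

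Values are RMA intensities of Affymetrix HG-U133 Plus 2.0 probe sets on a linear scale, and fold changes are differences of log2 intensity. Each gene was read from its brightest probe set, and the number of arrays limits the precision. The arrays of a group correlated at 0.9976 to 0.9988, and ATPdead and WT arrays under S2sh7 at 0.9974 to 0.9981. The median residual SD was 0.0703 on the log2 scale. The 3' minus 5' log2 difference of the ACTB control probe sets, a sign of RNA quality, was 0.230 to 0.303 in the ATPdead arrays and 0.238 to 0.251 in the WT arrays. Of the 9 epithelial and line markers 1 was called, KRT8 at 1076 with ATPdead and 1263 with WT. KRT18 averaged 5771 with ATPdead and 6074 with WT, VIM 14300.4 and 14139, and CDKN2A 1685 and 1679, while EPCAM (7.08 and 7.28) and CDH1 (5.80 and 5.82) were near the bottom of the scale. The summed line markers were 23692 to 23725 with ATPdead and 23981 to 24103 with WT, without overlap; their part in the results was not tested. Markers of other cells were dim: 7 of 10 leukocyte, 6 of 8 endothelial and 5 of 8 fibroblast markers lay under log2 5 in all 6 arrays. Their summed intensities were 198 to 222 with ATPdead and 204 to 215 with WT for leukocyte markers, 154 to 157 and 151 to 156 for endothelial markers, and 244 to 262 and 247 to 265 for fibroblast markers. None of the 13 tested genes of these 3 lists was called by limma. An unadjusted p under 0.05 was found for 2 of them and for 2269 of all 14695 genes.

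The targeted transcript was checked first. SMARCA2's brightest probe set over the 32 arrays had intensities of 41.1, 36.5 and 36.6 with ATPdead and 37.2, 38.0 and 42.0 with WT (log2 fold change -0.04, SE 0.10, adjusted p = 0.916, limma). With GFP under S2sh7 it read 37.7, 36.5 and 29.0. Another SMARCA2 probe set, the brightest in the H1299 arrays, was lower with GFP than with any SMARCA2 cDNA. It read 56.8, 62.5 and 50.9 with ATPdead, 91.2, 65.3 and 73.8 with WT, and 21.8, 19.9 and 35.5 with GFP. Each ATPdead array was below each WT array there, but the difference was not called (log2 fold change -0.43, SE 0.16, adjusted p = 0.208). A dimmer probe set that was likewise lower with GFP read 30.7, 30.5 and 32.5 with ATPdead, 37.8, 26.1 and 31.5 with WT, and 22.0, 19.2 and 19.2 with GFP, with no call between ATPdead and WT (log2 fold change -0.01, adjusted p = 0.983). A further probe set went the other way without a call (log2 fold change 0.24, adjusted p = 0.244, limma). It read 33.3, 29.1 and 33.6 with ATPdead, 26.4, 24.9 and 29.9 with WT, and 29.3, 32.3 and 24.9 with GFP. The last tested probe set differed by -0.10 (adjusted p = 0.764, limma). The part of the cDNA's own transcript level in the results was not tested. SMARCA4, which was measured at 118, 117 and 105 with ATPdead and 136, 122 and 125 with WT, was not called either (log2 fold change -0.17, adjusted p = 0.187). Neither were any of the 27 other SWI/SNF subunits (median log2 fold change -0.02) or the 20 SWI/SNF and other remodeler ATPases (median 0.02). With 3.02% of all genes called, lists of this size would hold few calls. An unadjusted p under 0.05 was found for 5 of the 27 and 4 of the 20, against 2269 of all 14695 genes.

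Of 14695 genes tested, 444 (3.02%) were called, meaning a limma adjusted p (Benjamini-Hochberg) under 0.05: 237 (1.61%) were higher and 207 (1.41%) lower with ATPdead. With each array centred on its median the split was 174 higher and 274 lower. The changes were small: the median size was 0.21 on the log2 scale, the range 0.09 to 0.998, and none reached 2-fold. Of the 21 genes that changed by at least 0.5, 4 were higher and 17 lower with ATPdead. The plot of fold change against intensity shows both tails, with the falls reaching further than the rises. These arrays were of bulk RNA, in which fewer cells expressing a gene and less RNA per cell cannot be told apart. The spread was estimated over all 24 H1299 arrays; from the 6 arrays alone 23 genes were called, all of them among the 444.

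**Figure D1:**
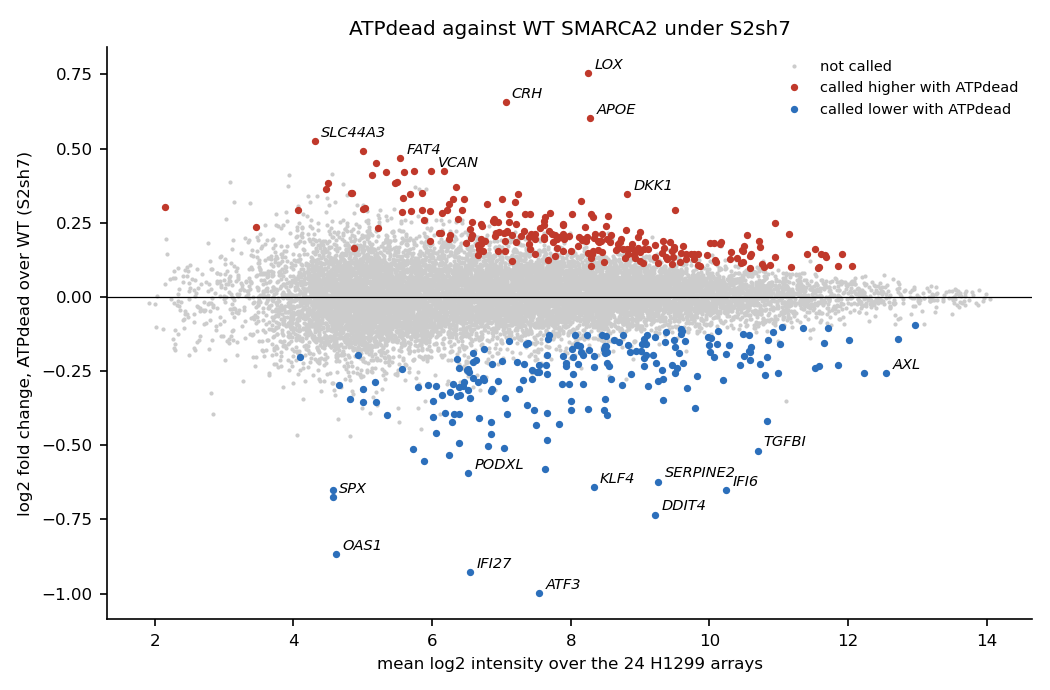
Log2 fold change of ATPdead over WT under S2sh7 (vertical axis) against mean log2 intensity over the 24 H1299 arrays (horizontal axis), 1 point per tested gene. Red points are the 237 genes called higher and blue points the 207 called lower, and ATF3, IFI27 and OAS1 lie lowest while LOX, CRH and APOE lie highest.

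The furthest fall was that of ATF3, a stress-induced transcription factor of the ATF and CREB family. Its intensity was 73.7, 75.3 and 80.3 in the ATPdead arrays, against 152, 148 and 158 in the WT arrays. Every ATPdead array lay at about the level of the GFP arrays under the same hairpin, 67.8, 76.5 and 74.9, and below every BRD array, 100.2, 109 and 94.7. The log2 fold change was -0.998 (SE 0.054, adjusted p = 2.69e-09). Of the other ATF3 probe sets 1 was also called, at -0.53, and a dim one was not, at -0.10.

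The highest rise was that of LOX, the lysyl oxidase that cross-links collagen and elastin. It read 611, 612 and 589 with ATPdead and 374, 335 and 367 with WT, without overlap (log2 fold change 0.75, SE 0.056, adjusted p = 1.2e-07). All 3 LOX probe sets were called higher, at 0.75, 0.85 and 0.73. APOE, a carrier of cholesterol and other lipids and a target of the LXR receptors, measured 516, 502 and 529 with ATPdead and 346, 336 and 336 with WT (log2 fold change 0.60, SE 0.034, adjusted p = 3.04e-09). CRH, the hypothalamic peptide that starts the adrenal stress axis, stood at 367, 338 and 332 with ATPdead and 218, 217 and 223 with WT (log2 fold change 0.66, SE 0.067, adjusted p = 8.42e-06). A dimmer CRH probe set was not called, at 0.18 (adjusted p = 0.582, limma). In the brightest probe set of all 3 genes the lowest ATPdead array exceeded the highest WT array by a wide margin.

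DDIT4, the stress-induced brake on mTORC1 also known as REDD1, fell as well: 345, 294 and 342 with ATPdead and 562, 490.0 and 578 with WT (log2 fold change -0.73, SE 0.088, adjusted p = 4.77e-05). All 3 ATPdead arrays were also below the GFP arrays, 429, 359 and 373 (log2 difference -0.24, adjusted p = 0.234, limma). KLF4, a zinc finger factor of epithelial differentiation and of reprogramming, measured 171, 167 and 159 with ATPdead and 248, 249 and 278 with WT (log2 fold change -0.64, SE 0.050, adjusted p = 2.35e-07). Both KLF4 probe sets were called, at -0.64 and -0.57. SERPINE2, an inhibitor of thrombin and plasminogen activators, was at 344, 358 and 327 with ATPdead and 524, 522 and 536 with WT (log2 fold change -0.62, adjusted p = 4.7e-08). With the mean of all its probe sets in place of the brightest, SERPINE2 was not called (log2 fold change -0.25, adjusted p = 0.0954). The plot of intensity by array shows these genes in all 8 H1299 groups.

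**Figure D2:**
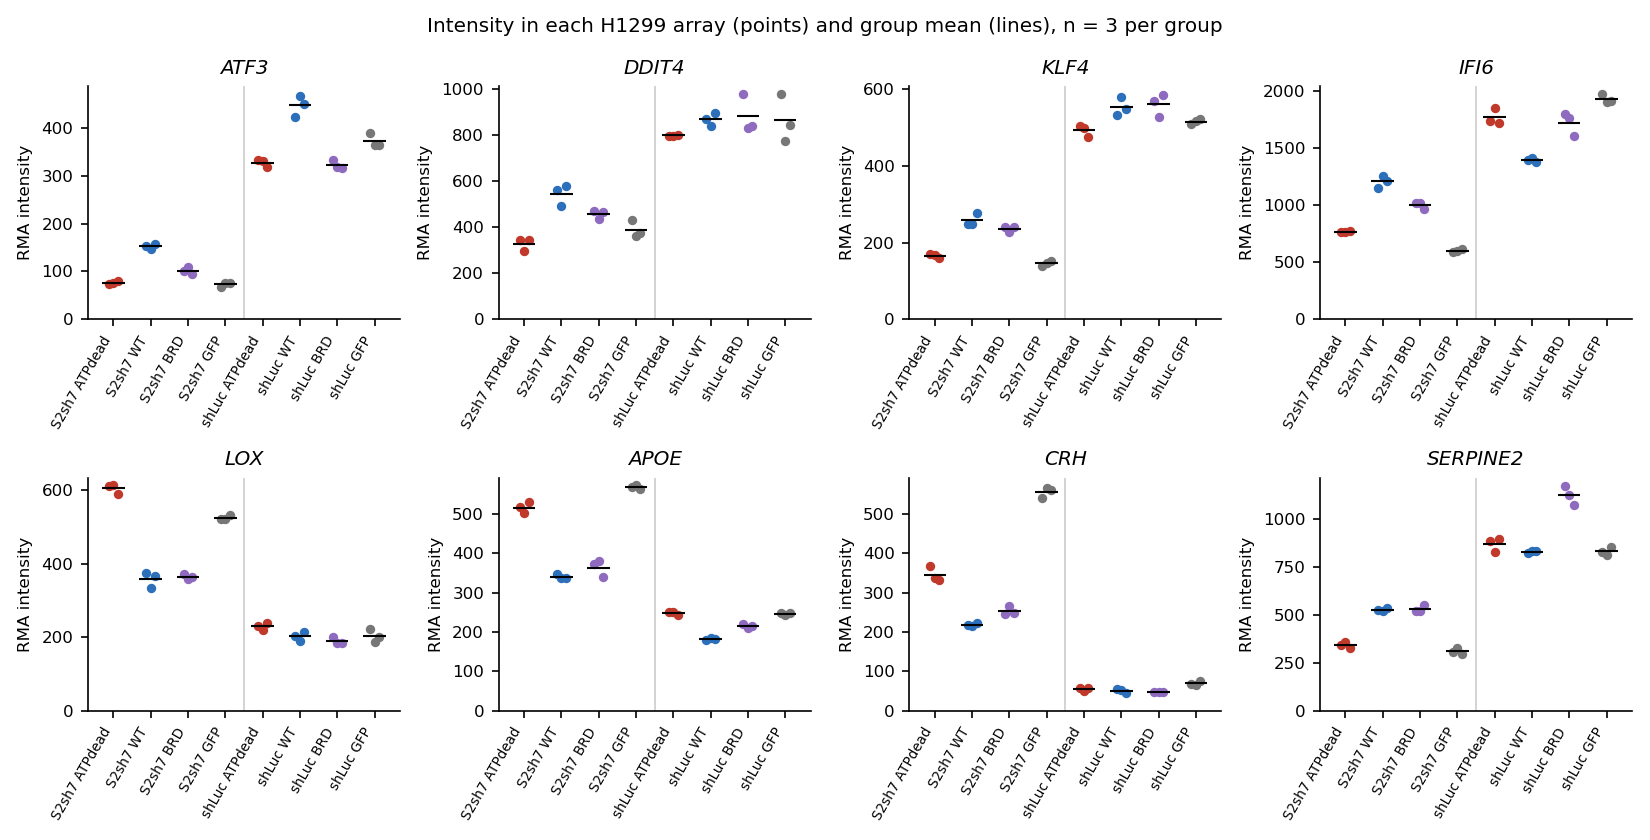
RMA intensity (vertical axis, linear) of 8 genes in each of the 24 H1299 arrays, with points for arrays and black lines for group means (n = 3 per group). Left of the grey line are the S2sh7 groups and right of it the shLuc groups. Under S2sh7 the ATPdead points of all 8 genes lie apart from the WT points, on the side of the GFP points. The 8 genes were picked from those called, so this separation adds no separate evidence.

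Among the 12 highest rises without overlap between arrays were also FAT4, an atypical cadherin, at 68.6, 69.8 and 68.6 with ATPdead and 50.1, 50.5 and 49.2 with WT (log2 fold change 0.47, adjusted p = 0.00951), and BMP6, a secreted morphogen, at 123, 109 and 102 with ATPdead and 84.6, 74.2 and 89.9 with WT (log2 fold change 0.43, adjusted p = 0.0252). EOMES, a T-box factor of early lineages, and VCAN, the matrix proteoglycan versican, rose by 0.42 and 0.42. The others were SLC44A3 (0.52), GATM, an enzyme of creatine synthesis (0.49), GSTO2, a glutathione transferase (0.45), MOCS2-DT (0.42) and PRSS16, a thymic protease (0.42). SLC44A3 was dim, with every WT array under an intensity of 20. Leaving the filter on dim genes out ended the calls of EOMES (adjusted p = 0.0691) and MOCS2-DT (adjusted p = 0.0521), and the mean of all probe sets those of GATM (adjusted p = 0.0636) and BMP6 (adjusted p = 0.81). In fits without 1 of the 6 arrays LOX, CRH, APOE, FAT4 and VCAN kept their calls, and the other 7 of the 12 lost theirs without at least 1 array, EOMES whichever array was left out.

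Further falls among the 12 furthest were PODXL, a sialomucin of the cell surface, at 55.9, 58.4 and 51.4 with ATPdead and 86.6, 74.2 and 89.6 with WT (log2 fold change -0.59, adjusted p = 7.79e-05), and MYO5B, a motor of recycling vesicles, at 112, 106 and 92.7 with ATPdead and 153, 156 and 154 with WT (log2 fold change -0.58, adjusted p = 0.000137). NTN4, a netrin of basement membranes, fell by 0.55. SPX, the neuropeptide spexin, and SPARC, a matricellular protein, fell by 0.68 and 0.65, but both were dim: SPARC, whose call was lost without ATPdead replicate 2 or WT replicate 2, measured 12.8, 11.3 and 11.9 with ATPdead and 18.6, 19.7 and 18.1 with WT, and SPX 13.5, 13.9 and 11.8 with ATPdead and 23.8, 20.4 and 18.6 with WT. Among the 444 called genes, 13 averaged under log2 5 in both groups.

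Interferon-stimulated genes encode proteins that restrict viruses, and most are switched on by the factor complex ISGF3 at a promoter element named ISRE. Of 39 tested genes on the list, 9 fell with ATPdead under S2sh7 and 0 rose, against 1.41% and 1.61% of all tested genes. The median log2 fold change of the list was -0.13, with 36 of 39 below 0, while the median over all tested genes was 0.01. The plot of calls per list shows it as the list with the most falls.

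**Figure D3:**
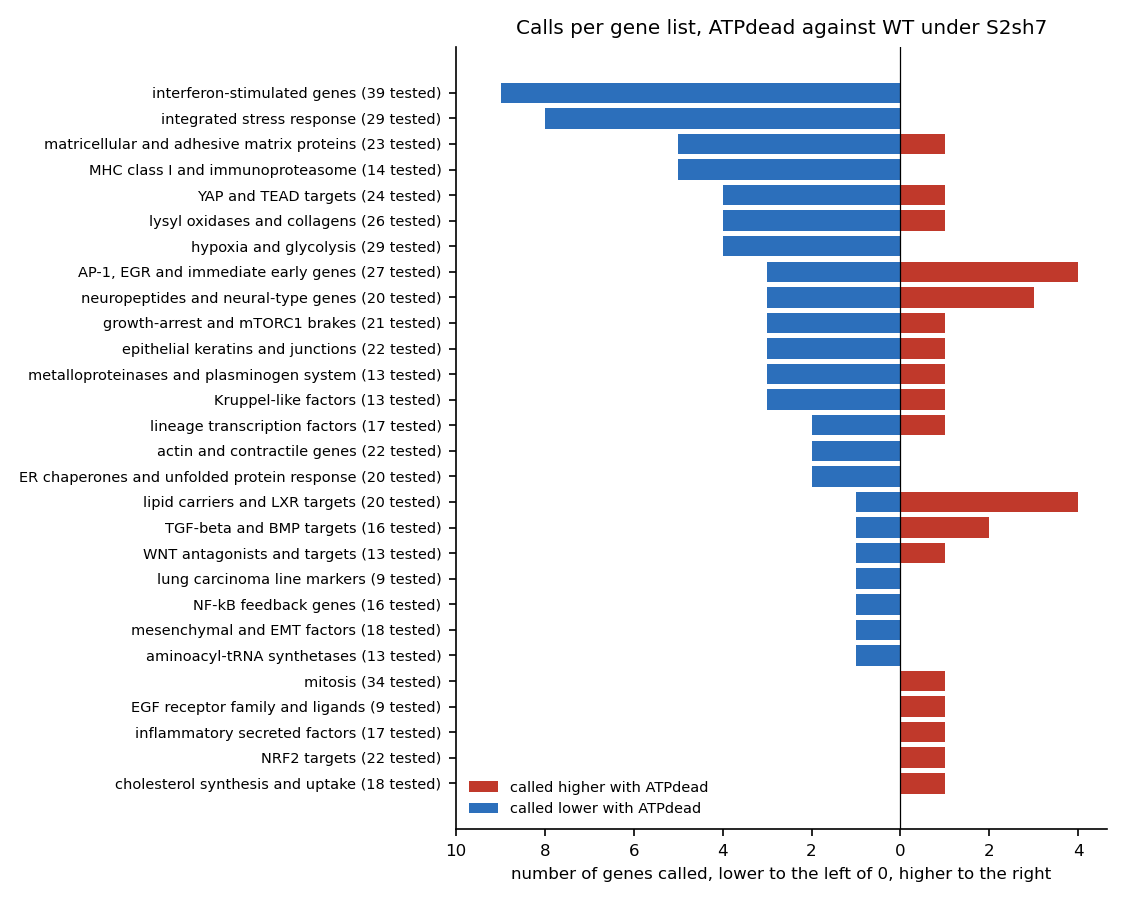
Number of genes called lower (blue, left of 0) and higher (red, right of 0) with ATPdead against WT under S2sh7, for each gene list with at least 1 call; the number of genes tested stands beside each list name. Interferon-stimulated genes (9 lower of 39) and the integrated stress response (8 lower of 29) lead, and neither has a call to the right.

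IFI6, an inhibitor of flavivirus replication and of apoptosis, measured 766, 767 and 770.3 with ATPdead and 1149.8, 1258 and 1213 with WT (log2 fold change -0.65, SE 0.042, adjusted p = 1.23e-08). IFI27 stood at 43.6, 42.5 and 43.1 with ATPdead and 87.1, 86.6 and 72.7 with WT (log2 fold change -0.93, SE 0.11, adjusted p = 4.5e-05). LGALS3BP, a secreted galectin-binding glycoprotein, was at 139, 129.5 and 126 with ATPdead and 177, 182 and 191 with WT (log2 fold change -0.48, adjusted p = 2.1e-05). These 3 genes were picked because they were called, so their lack of overlap between groups adds no separate evidence. ISG15, the ubiquitin-like modifier, measured 872, 884 and 870.0 with ATPdead and 1004, 1112 and 1078 with WT (log2 fold change -0.28, adjusted p = 0.00712). OAS1, which makes the activator of RNase L, was called at -0.87 (adjusted p = 0.00038) but at intensities of only 8.60, 11.0 and 13.4 with ATPdead and 18.2, 21.3 and 19.8 with WT. The other 4 called members, named here to complete the count, were UBE2L6 (-0.22), SP100 (-0.18), IFITM3 (-0.10) and IFITM1 (-0.49). IFITM1 and IFITM3 are close copies, and their probe sets may not tell them apart. IFITM3 lost its call in 5 of the 6 fits without 1 array. In fits without 1 of the 6 arrays 6 to 8 of the 39 genes were lower, and from the 6 arrays alone 3.

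The ISRE was searched as GAAA, any 2 bases and GAAA on both strands in the 250 bases before 1 start site per gene in RefSeq (GRCh38.p14). It was present in 6 of the 9 interferon genes that fell (66.7%), in 19 of the 30 tested list genes with a promoter entry (63.3%) and in 2.22% of the 11729 tested genes with one. Among all called genes with an entry it was found in 7.74% of the 168 that fell and 2.53% of the 198 that rose. Windows of 90 or 91 bases from 5 of these 6 genes follow, 5′ to 3′ on the strand of the gene, with every match inside the window in capitals, because they show the element that the falling interferon genes share with their list. They lie at chr1:27672298-27672388 (minus strand, IFI6), chr14:94110588-94110677 (plus, IFI27), chr1:1013344-1013433 (plus, ISG15), chr17:78979932-78980021 (minus, LGALS3BP) and chr11:320863-320952 (minus, IFITM3).
IFI6: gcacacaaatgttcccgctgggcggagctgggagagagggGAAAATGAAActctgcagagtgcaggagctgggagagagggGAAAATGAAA
IFI27: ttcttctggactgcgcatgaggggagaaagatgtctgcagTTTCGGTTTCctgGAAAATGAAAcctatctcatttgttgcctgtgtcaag
ISG15: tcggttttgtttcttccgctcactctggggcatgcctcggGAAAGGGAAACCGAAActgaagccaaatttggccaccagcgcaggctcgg
LGALS3BP: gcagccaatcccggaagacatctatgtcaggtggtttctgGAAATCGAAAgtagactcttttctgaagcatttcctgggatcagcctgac
IFITM3: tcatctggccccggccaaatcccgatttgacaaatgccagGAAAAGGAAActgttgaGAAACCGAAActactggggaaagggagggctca
The windows of IFI6, IFI27, ISG15 and IFITM3 hold 2 matches each, which overlap in ISG15, and that of LGALS3BP holds 1. The IFI6 promoter has 1 more match outside its window. The first match of IFI27 is on the opposite strand and the second on the strand of the gene, while the other matches in these windows lie on the strand of the gene. A match is a description of the letters and not of binding.

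MHC class I genes, which present peptides to T cells, and the immunoproteasome, which cuts those peptides, had 5 falls and 0 rises among 14 tested. The shares over all genes were 1.41% and 1.61%. HLA-B measured 2391, 2419 and 2509.8 with ATPdead and 2790.4, 2918 and 2893 with WT (log2 fold change -0.23, adjusted p = 3.78e-05), and HLA-C fell by 0.24. These genes are highly similar, and their probe sets may not tell them apart. B2M, the light chain of the class I molecule, was at 5929.9, 5888 and 5877 with ATPdead and 6398, 6500.0 and 6622 with WT (log2 fold change -0.14, adjusted p = 0.0034). The proteasome genes PSMB8 and PSME1 fell by 0.16 and 0.13, and lost their calls in 2 and 4 of the 6 fits without 1 array. All 5 differences were small. With the mean of all probe sets B2M was not called (adjusted p = 0.185, limma), and from the 6 arrays alone none of the 14 was called.

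The integrated stress response slows translation and induces ATF4, which drives genes of amino acid supply and, with ATF3 and DDIT3, of cell death. The median log2 fold change of its 29 tested genes was -0.11, with 27 of 29 below 0. Among them 8 fell and 0 rose, against 1.41% and 1.61% of all genes. Beside ATF3 and DDIT4 these were TRIB3, a pseudokinase that restrains AKT and ATF4, at 306, 301 and 315 with ATPdead and 379, 374 and 379.9 with WT (log2 fold change -0.30, adjusted p = 6.34e-05). CHAC1, which degrades glutathione, was at 122, 127 and 112 with ATPdead and 169, 150.2 and 150.4 with WT (log2 fold change -0.38, adjusted p = 0.00208). SLC3A2, the heavy chain of amino acid exchangers, fell by 0.19. Completing the count, SHMT2, NUPR1 and DDIT3 fell by 0.11, 0.35 and 0.18. Of 13 aminoacyl-tRNA synthetases 1 fell (WARS1, -0.15) and of 20 genes of ER folding 2 fell (XBP1 at -0.29 and HERPUD1 at -0.15), and none rose; neither XBP1 (adjusted p = 0.0671) nor HERPUD1 (adjusted p = 0.558) was called with the mean of all probe sets. In fits without 1 of the 6 arrays 5 to 7 of the 29 stress genes were lower, and from the 6 arrays alone 2.

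The amino acid response element was searched as TGATGNAA on both strands in the same promoters. It was found in 2 of the 6 stress genes that fell and have a promoter entry, ATF3 and CHAC1, in 4 of the 24 tested list genes with an entry (16.7%) and in 1.66% of all 11729. Both windows, of 88 bases each, are printed because the ATF4-type element is known to act in stress promoters. They lie at chr1:212565176-212565263 (plus strand, ATF3) and chr15:40953222-40953309 (plus, CHAC1), and the match in CHAC1 is on the opposite strand.
ATF3: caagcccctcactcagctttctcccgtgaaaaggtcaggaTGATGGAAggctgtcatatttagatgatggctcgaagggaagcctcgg
CHAC1: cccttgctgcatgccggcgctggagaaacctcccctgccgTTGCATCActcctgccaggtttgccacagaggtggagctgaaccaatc
The AP-1 site, searched as TGANTCA, was in 7.74% of the promoters of genes that fell, 4.55% of those of genes that rose and 4.26% of all, and the CRE, searched as TGACGTCA, in 1.79%, 3.54% and 2.67%.

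AP-1, EGR and other immediate early genes, which answer growth factors within minutes, moved both ways, with 4 rises and 3 falls among 27 tested. The shares over all genes were 1.61% and 1.41%. IER3, a survival factor, read 232, 211 and 227 with ATPdead and 276, 298 and 309 with WT (log2 fold change -0.40, adjusted p = 1.46e-05), and FOSL1, the AP-1 subunit FRA1, fell by 0.19. The rises were of brakes on MAP kinase signalling: SPRY2 (0.17), DUSP10 (0.26) and, completing the count, SPRY4 (0.19), together with the AP-1 subunit JUND (0.12). Of 13 Kruppel-like factors KLF4, KLF2 (-0.26) and KLF10 (-0.21) fell and KLF6 rose (0.10, adjusted p = 0.0496). KLF2 was not called with the mean of all probe sets (adjusted p = 0.114), and KLF6 lost its call in 5 of the 6 fits without 1 array. GADD45A and GADD45B, inducible stress and growth arrest genes, fell by 0.26 and 0.28.

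Of 26 lysyl oxidase and collagen genes 1 rose, LOX, and 4 fell, against 1.61% and 1.41% of all genes. LOXL2, which also oxidises collagen lysines, measured 207, 182 and 206 with ATPdead and 241, 247 and 241 with WT (log2 fold change -0.29, adjusted p = 0.000316). COL13A1, a membrane collagen, was at 69.3, 73.1 and 65.1 with ATPdead and 100.4, 90.8 and 94.3 with WT (log2 fold change -0.46, adjusted p = 0.00017). The others were P4HA2, a collagen prolyl hydroxylase (-0.31), and COL18A1, a basement membrane collagen (-0.28). With the mean of all probe sets LOXL2 (-0.13, adjusted p = 0.149), P4HA2 (-0.10, adjusted p = 0.247) and the matrix gene FSTL1 (-0.08, adjusted p = 0.621) were not called. Of 23 matricellular and adhesive proteins 5 fell and 1 rose. TGFBI, an adhesive matrix protein induced by TGF-beta, stood at 898, 898 and 933 with ATPdead and 1342, 1236 and 1333 with WT (log2 fold change -0.52, SE 0.033, adjusted p = 1.23e-08). FSTL1 and SRPX fell by 0.38 and 0.26, SPARC fell as given above and, completing the count, LAMB1 fell by 0.22, while VCAN rose. Of 13 metalloproteinase and plasminogen genes, SERPINE2, TIMP2 (-0.20) and PLAU (-0.17) fell and TIMP1 rose (0.15).

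Genes under YAP and TEAD, the output of the Hippo pathway, had 4 falls and 1 rise among 24, against 1.41% and 1.61% of all genes. AXL, a receptor kinase, measured 4458, 4662 and 4507 with ATPdead and 5395, 5378 and 5519 with WT (log2 fold change -0.26, SE 0.025, adjusted p = 4.18e-06), a small fall in a bright gene. IGFBP3, which binds insulin-like growth factors, was at 96.9, 76.6 and 83.6 with ATPdead and 125, 116 and 123 with WT (log2 fold change -0.51, adjusted p = 0.000584). AJUBA and GADD45A fell by 0.27 and 0.26 and DLC1 rose by 0.16, though not with the mean of all probe sets (adjusted p = 0.293). TPM1 and TAGLN2, both actin binders, fell by 0.26 and 0.20, the only calls among 22 contractile genes. Of the epithelial genes KRT80 read 64.3, 59.1 and 63.5 with ATPdead and 90.2, 86.1 and 88.6 with WT (log2 fold change -0.50, adjusted p = 8.18e-07). KRT8 and KRT7 fell by 0.23 and 0.39, and OCLN, a tight junction protein, rose by 0.19. OCLN lost its call in 4 of the 6 fits without 1 array.

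Lipid carriers and LXR targets had 4 rises and 1 fall among 20, against 1.61% and 1.41% of all genes. Beside APOE, its neighbour APOC1 read 239.7, 240.4 and 244 with ATPdead and 202, 209.6 and 209 with WT (log2 fold change 0.22, adjusted p = 0.00163). PLTP, which moves phospholipid between lipoproteins, and SMPDL3A, a phosphodiesterase induced by LXR, rose by 0.21 and 0.23. With the mean of all probe sets neither APOC1 (adjusted p = 0.0645) nor SMPDL3A (adjusted p = 0.118) was called. MGLL, the lipase of monoacylglycerols, measured 102, 106 and 108 with ATPdead and 150.2, 131 and 145 with WT (log2 fold change -0.43, adjusted p = 0.000174). Cholesterol synthesis gave 1 rise among 18, IDI1 at 0.14, too few to set the list apart from all genes. IDI1 lost its call in 4 of the 6 fits without 1 array. Of the secreted signalling genes DKK1, a WNT antagonist, rose (0.35, adjusted p = 3.42e-05) and its relative DKK3 fell (-0.28, adjusted p = 8.72e-06). ID2 and ID3, which block basic helix-loop-helix factors, rose by 0.28 and 0.21. ID3 lost its call in 5 of the 6 fits without 1 array. SOX9 and RUNX2, factors of cartilage and bone, fell by 0.21 and 0.25, while EOMES rose.

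Neuropeptide and neuroendocrine genes gave 3 rises and 3 falls among 20, against 1.61% and 1.41% of all genes. Beside CRH, the granins CHGB and, completing the count, CHGA rose (0.23 and 0.23). GAL, the precursor of galanin, was at 24.6, 22.9 and 24.8 with ATPdead and 29.0, 31.4 and 32.1 with WT (log2 fold change -0.36, adjusted p = 0.0275), and it fell along with SPX and ENO2, the neuronal enolase (-0.31). Of 29 hypoxia and glycolysis genes 4 fell and 0 rose: DDIT4, ENO2, ENO1 (-0.09) and the glucose transporter SLC2A1 (-0.22). In fits without 1 of the 6 arrays 1 to 3 of them were lower: ENO1 lost its call each time, and ENO2 and SLC2A1 in 5 of the 6 fits. Single calls were those of the chemokine CXCL2 (0.35), the EGF receptor inhibitor ERRFI1 (0.14) and the thioredoxin reductase TXNRD1 (0.14), which rose, and of the integrin ITGA5 (-0.23) and the NF-kappaB target TRAF1 (-0.29), which fell. TRAF1 and GAL each lost their call in 4 of the 6 fits without 1 array.

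Calls among proliferation and translation genes were few, but 3.02% of all genes were called, so short lists would hold few. None of 39 DNA replication genes and none of 18 ribosomal protein genes was called by limma (both medians within 0.01 of 0). Of 34 mitosis genes 1 rose (KIF4A, 0.12, adjusted p = 0.0487), and it lost its call in 4 of the 6 fits without 1 array. An unadjusted p under 0.05 was found for 4, 2 and 7 genes of these lists, against 2269 of all 14695 genes. TYMS, thymidylate synthase, was at 4821, 4814 and 4807 with ATPdead and 4922, 4846 and 4743 with WT, with overlapping groups. RPS19, a ribosomal protein, differed by -0.01 (95% interval -0.05 to 0.04).

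The same 2 cDNAs were compared with the control hairpin shLuc, with which the cells keep their own SMARCA2, on 6 other arrays. There 395 genes (2.69%) were called, 215 (1.46%) higher and 180 (1.22%) lower with ATPdead. Centring each array on its median gave 181 higher and 246 lower. Of the 237 genes that rose under S2sh7, 47 (19.8%) rose under shLuc and 5 fell. Of the 207 that fell, 51 (24.6%) fell and 6 rose. The shared genes made up 21.9% of the shLuc rises and 28.3% of its falls. The difference between the hairpins was itself called for 90 genes (0.612%), 31 (0.211%) positive and 59 (0.401%) negative. Of these, 37 were called with S2sh7 alone, 37 with shLuc alone, 11 with both in opposite directions, 2 with both in the same direction and 3 with neither.

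Interferon genes had falls with ATPdead under S2sh7 and rises under shLuc. Under shLuc 18 of the 39 rose with ATPdead and 0 fell (median 0.19), against 1.46% and 1.22% of all genes. The hairpin difference was called for 17, all negative, against 0.401% of all genes. IFI6 measured 1739, 1853 and 1717 with ATPdead and 1393, 1410.2 and 1377 with WT under shLuc (log2 fold change 0.34, adjusted p = 7.16e-05), the reverse of its order under S2sh7, and its difference between hairpins was -0.996 (SE 0.059, adjusted p = 1.27e-08). ISG15 was at 1627, 1687 and 1588 with ATPdead and 1209, 1258 and 1229 with WT (log2 fold change 0.41, adjusted p = 0.00031). IFIT1, which binds foreign RNA caps, was called under shLuc at 0.63 (adjusted p = 3.11e-05), whereas its S2sh7 fold change was -0.06 (95% interval -0.20 to 0.09). Both hairpins had groups of IFI6 and ISG15 that did not overlap, in opposite order. For HLA-B the difference was -0.31 (adjusted p = 0.00016), with no call under shLuc (0.08).

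Stress genes had falls and no rises under both hairpins. Of the 29 tested, 11 fell and 0 rose with ATPdead under shLuc (median -0.14), against 1.22% and 1.46% of all genes. The difference between hairpins was called for 2, ATF3 and DDIT4. ATF3 read 334, 332 and 318 with ATPdead and 424, 468 and 451 with WT under shLuc (log2 fold change -0.45, adjusted p = 7.16e-05), and its difference between hairpins was -0.55 (adjusted p = 0.000569). That difference was not called in another ATF3 probe set, which changed by -0.53 under S2sh7 and -0.46 under shLuc. Its difference was -0.07 (adjusted p = 0.947, limma). DDIT4, at 795, 796 and 801 with ATPdead and 868, 839 and 893 with WT, was not called under shLuc (-0.12, adjusted p = 0.617), with a difference of -0.61 (adjusted p = 0.0211). TRIB3 fell by 0.31 under shLuc, and the difference of 0.01 had a 95% interval of -0.10 to 0.12. For CHAC1 the difference was -0.10 (95% interval -0.29 to 0.09), a wider range.

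APOE also rose under shLuc, at 251, 250.1 and 242 with ATPdead and 180.0, 186 and 183 with WT (log2 fold change 0.44, adjusted p = 5.5e-07), and the difference of 0.17 was not called (95% interval 0.06 to 0.27). LOX, at 231, 220.4 and 238 with ATPdead and 203, 189.8 and 214 with WT, was not called under shLuc, and its difference of 0.57 was (adjusted p = 0.000569). KLF4 was not called under shLuc either, with -0.17 (adjusted p = 0.0887) and a difference of -0.47 (adjusted p = 0.00115). TGFBI and SERPINE2 had shLuc fold changes of 0.03 and 0.07 and differences of -0.55 and -0.69 (adjusted p = 3.25e-06 and 5.05e-06). PODXL fell under both, by 0.59 with S2sh7 and by 0.73 with shLuc, as did SPX, by 0.68 and 0.64. YAP and TEAD targets had 11 falls and 0 rises of 24 under shLuc, immediate early genes 9 falls and 1 rise of 27, and lipid and LXR genes 1 fall and 5 rises of 20. The shares over all genes there were 1.22% and 1.46%. CCN2, a YAP target, was called only under shLuc (-0.37), with 0.15 under S2sh7 (adjusted p = 0.158) and a called difference of 0.52 (adjusted p = 0.000578).

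**Figure D4:**
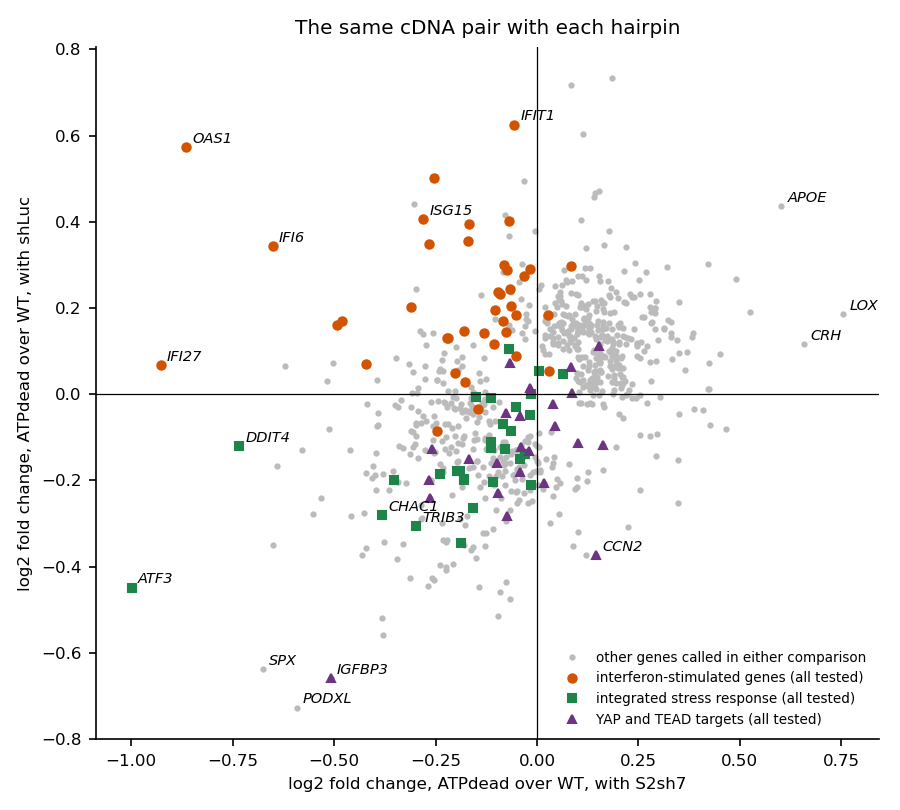
Log2 fold change of ATPdead over WT with S2sh7 (horizontal axis) and with shLuc (vertical axis), 1 point per gene, for genes called in either comparison and for all tested members of 3 lists. Interferon-stimulated genes (orange circles) lie mostly in the upper left, with IFI6 at -0.65 and 0.34, and stress response genes (green squares) mostly in the lower left, with ATF3 at -0.998 and -0.45.

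The bromodomain mutant keeps the ATPase but has an altered acetyl-lysine reader. ATPdead against BRD under S2sh7 gave 425 called genes (2.89%), 248 (1.69%) higher and 177 (1.2%) lower, and 160 higher and 265 lower with arrays centred on their medians; this comparison shares the ATPdead arrays with that against WT. LOX measured 372, 357 and 365 in the BRD arrays, within the range of the WT arrays, and ATPdead was higher than BRD by 0.73 (adjusted p = 2.55e-07). APOE was 372, 379 and 339 with BRD and the ATPdead difference was 0.51 (adjusted p = 6.26e-08). TGFBI (-0.65), SERPINE2 (-0.63), PODXL (-0.62), KRT80 (-0.58) and KLF4 (-0.51) were lower with ATPdead than with BRD. IFI6 (-0.38) and ATF3 (-0.40) were too, each with BRD arrays between the ATPdead and the WT arrays.

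Of the 29 stress genes ATF3 and DDIT4 (-0.48, adjusted p = 0.00345) were lower with ATPdead than with BRD and 1 was higher, asparagine synthetase (ASNS, 0.14). TRIB3 was at 306, 301 and 315 with ATPdead and 318, 330.5 and 305 with BRD, a difference of -0.05 (95% interval -0.12 to 0.03). SLC3A2 and CHAC1 differed by -0.01 (interval -0.08 to 0.06) and -0.06 (interval -0.19 to 0.08), XBP1 and HERPUD1 by -0.05 (interval -0.15 to 0.05) and 0.00 (interval -0.07 to 0.07), and GADD45A by -0.07 (interval -0.14 to 0.00). None of these 6 intervals reaches the size of the gene's difference between ATPdead and WT. Of the 39 interferon genes 11 were lower and 0 higher with ATPdead than with BRD, among them LGALS3BP (-0.44), IFI27 (-0.61) and IRF9 (-0.34), a subunit of ISGF3.

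GFP in place of a SMARCA2 cDNA gives the level under S2sh7 without rescue. ATPdead against GFP called 118 genes (0.803%), 69 (0.47%) higher and 49 (0.333%) lower, and 28 higher and 154 lower with arrays centred on their medians. WT against GFP called 743 (5.06%), 493 (3.35%) higher and 250 (1.7%) lower, or 359 and 522 after centring. Both share arrays with the comparison of ATPdead and WT, so their values are only set side by side. ATF3 differed from GFP by 0.07 with ATPdead (adjusted p = 0.667) and by 1.06 with WT (adjusted p = 2.13e-10). For TGFBI these differences were 0.03 and 0.55, for SERPINE2 0.14 and 0.76, and for APOE -0.14 and -0.74. WT differed from GFP by limma in each of these 4 genes, and for ATPdead none of the 4 was called. CRH was lower than GFP with both, by 0.69 with ATPdead and by 1.34 with WT. IFI6 was higher than GFP with both, by 0.36 with ATPdead (adjusted p = 0.000187) and by 1.01 with WT.

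The knockdown itself, S2sh7 GFP against shLuc GFP, was measured on arrays that the ATPdead against WT comparison does not use. It called 4359 genes (29.7%), 1999 (13.6%) higher and 2360 (16.1%) lower. With arrays centred on their medians the split was 3316 and 1684, and after another quantile normalization 2547 and 2100. Of the 237 genes higher with ATPdead than with WT, 180 (75.9%) rose with the knockdown, 4 fell and 53 were not called. Of the 207 lower, 193 (93.2%) fell with the knockdown, 0 rose and 14 were not called. These 180 and 193 genes were 9.00% of the knockdown's rises and 8.18% of its falls. The median knockdown change was 0.23 over the 237 genes and -0.55 over the 207, against 0.01 over all tested genes. By list, 34 of the 39 interferon genes and 24 of the 29 stress genes fell with the knockdown and none of either list rose.

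CRH stood at 540.2, 567 and 563 in S2sh7 GFP arrays and 67.7, 64.6 and 76.1 in shLuc GFP arrays, a knockdown change of 3.01, the highest among the genes that rose with ATPdead. ATF3 was at 67.8, 76.5 and 74.9 in S2sh7 GFP arrays and 390.1, 364 and 364 in shLuc GFP arrays (log2 fold change -2.35), KLF4 changed by -1.82, IFI27 by -2.23, LOX by 1.37 and APOE by 1.21. Some genes separated ATPdead from WT without a called knockdown change: SLC44A3 (-0.18), GATM (-0.10), GSTO2 (-0.02), MOCS2-DT, PMCH, the peptide precursor of melanin-concentrating hormone (-0.17), and TSGA10 (0.15) among the rises, and SERINC2 (-0.10), SLC43A1 (0.11), TEX101, AGAP6 (-0.09), NKX3-2 (0.02) and MAPDA (-0.09) among the falls. The 4 genes that rose with ATPdead and fell with the knockdown were COXFA4L3 (0.27 and -0.41), EPDR1 (0.28 and -0.14), CNN3-DT (0.22 and -0.24) and PEX39 (0.18 and -0.15).

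**Figure D5:**
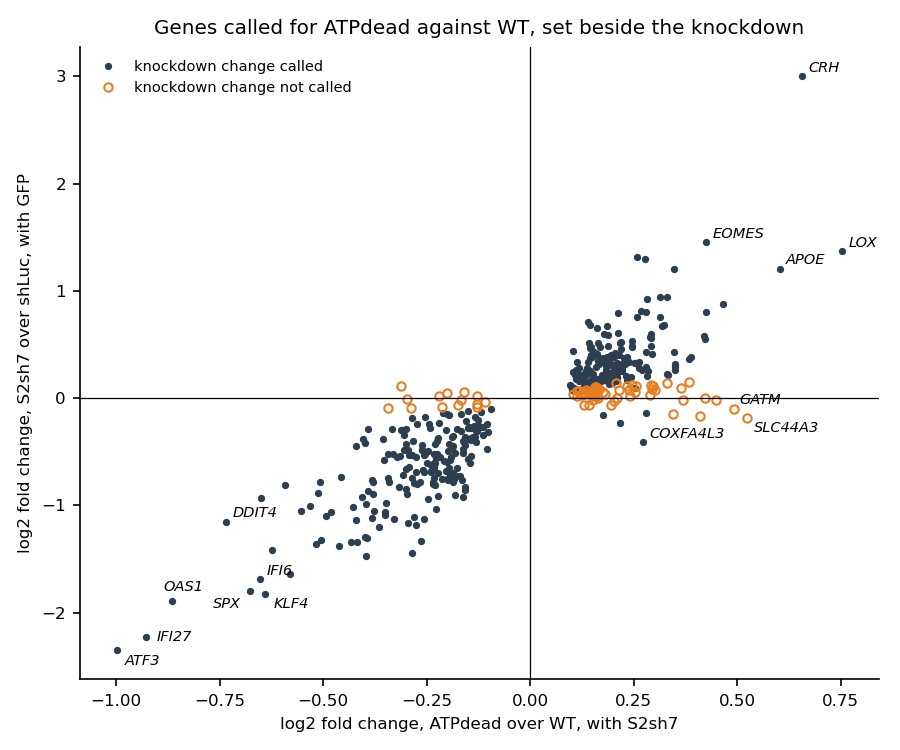
Log2 fold change of ATPdead over WT with S2sh7 (horizontal axis) and of S2sh7 over shLuc with GFP (vertical axis), 1 point per gene, for the 444 genes called in the first. Filled points were also called in the knockdown and open circles were not; falls lie in the lower left, down to ATF3 at -0.998 and -2.35, and open circles gather near 0 on the vertical axis, mostly among the rises.

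In A549 the corresponding arrays carried ATPase dead or WT SMARCA4, 1 array per group, so these differences have no replicate check. Only genes with a mean log2 intensity over 5 in the A549 arrays were counted. Of those that rose in H1299, 150 of 221 (67.9%) had a higher value with ATPase dead than with WT SMARCA4 under S2sh7. The share of all genes was 50.1%. Of the genes that fell and passed that filter, 115 of 194 (59.3%) had a lower value, against 49.8% of all genes. With shLuc the shares were 65.6% of the rises, against 57.3% of all genes, and 42.3% of the falls, against 42.6%. Among the larger differences of the same sign under S2sh7 were COXFA4L3 (4.02), EOMES (2.73), FAT4 (2.39), LGALS3BP (-2.97), GBP3 (-2.75) and SPX (-2.52). APOE and ATF3 differed by 0.90 and -0.95, whereas LOX differed by 0.06, and KLF4, VCAN and NTN4 had the opposite sign, at 0.49, -1.82 and 1.83.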

How the data were processed

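RNA of 32 H1299 and A549 samples was labelled by a 3' IVT protocol and hybridised to Affymetrix HG-U133 Plus 2.0 arrays, per the labels' protocols. The deposited values are intensities on a linear scale that the authors normalized with RMA, and limma was also used, per the submitters' processing notes (versions not given). Normalization fixes each array's distribution, so shifts common to most genes are not measured.

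Intensities were converted to log2 with no pseudocount. Of 54675 probe sets, 41097 have 1 gene symbol, 1801 several and 11777 none in the platform annotation; only the first were used. Each gene was represented by its brightest probe set over the 32 arrays, and a gene was tested if log2 exceeded 5 in at least 3 arrays, which kept 14695 of 19775 (74.3%). limma 3.58.1 (R 4.3.3) fitted 1 mean per group over the 24 H1299 arrays, with 16 residual degrees of freedom, eBayes and Benjamini-Hochberg adjustment over all genes tested; the fit was tested on simulated data. The difference between hairpins is the interaction contrast.

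Named genes were the marker genes of the comparison, the 12 largest rises and falls without overlap, up to 5 called genes per list with the smallest adjusted p (up to 2 for lists with no call), up to 6 per direction in the hairpin and BRD comparisons, and up to 6 per direction by their knockdown and A549 values; those named to complete a count, and ASNS, were chosen after their values were seen. Members and lists were chosen with earlier results of these data known. Alternatives changed the probe set, filter, normalization, variance model, arrays in the fit, replicate block and replicates. Promoters and sequences are from RefSeq (GRCh38.p14).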

Additional observations from a re-analysis of the deposited data

Results flagged for a closer look

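The effect of ATPdead against WT differed between the S2sh7 and shLuc hairpins, by the limma interaction contrast, for 90 genes. The 12 genes with the largest called differences, 6 per direction, are given here as the S2sh7 effect minus the shLuc effect in log2. They were not filtered for overlap between arrays. On the negative side were the interferon genes OAS1 (-1.44), IFI6 (-0.996), IFI27 (-0.99), IRF9 (-0.76) and ISG15 (-0.69) and the cornified envelope gene PPL (-0.74). OAS1 lay at dim intensities in both S2sh7 groups. On the positive side were CXCL2 (0.60), LOX (0.57), CRH (0.54), the decoy death receptor gene TNFRSF10D (0.53), CCN2 (0.52) and DKK1 (0.50). When a gene's probe sets were averaged, the differences of CXCL2, CRH and TNFRSF10D were no longer called. Fitted on the compared arrays alone, CXCL2 (adjusted p = 0.0543), CRH (adjusted p = 0.0697) and PPL (adjusted p = 0.0913) were not called. PPL also lost its call without S2sh7 ATPdead replicate 2, S2sh7 WT replicate 1, shLuc ATPdead replicate 1 or 3, or shLuc WT replicate 2 (adjusted p 0.0546 to 0.0668).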

How the results depend on the processing

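With trended, robust variances 702 genes differed between ATPdead and WT under S2sh7, 630 under shLuc, 185 between hairpins, 306 between ATPdead and GFP, and 566 in both the ATPdead comparison and the knockdown. Fitted on the compared arrays alone, the counts were 23, 100 and 49, with 13 against BRD, 2 against GFP, 117 for WT against GFP and 22 shared with the knockdown. Fitting each probe set gave 416 calls for ATPdead against GFP, 1149 for WT against GFP and 7173 for the knockdown. ATPdead against GFP also gave 61 calls with no filter, 178 with a filter of log2 over 6 and 182 with centred arrays. A change of at least 0.5 left 21 calls, and an adjusted p under 0.01 in both left 165 genes shared with the knockdown. The causes were not tested.

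Leaving out 1 array at a time gave 240 to 377 calls between ATPdead and WT. The count was 240 without ATPdead replicate 2, 252 without WT replicate 2 and 289 without WT replicate 1. The ranges were 208 to 274 under shLuc (lowest without shLuc WT replicate 2), 60 to 95 between hairpins, 251 to 382 against BRD (lowest without BRD replicate 1), 32 to 161 for ATPdead against GFP (lowest without GFP replicate 1), 456 to 659 for WT against GFP, 3496 to 4093 for the knockdown and 207 to 360 shared with the knockdown.

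Of 109 named genes called between ATPdead and WT, 69 stayed called whichever of the 6 arrays was left out; 22, 30 and 14 were lost without ATPdead replicate 1, 2 and 3, and 26, 31 and 20 without WT replicate 1, 2 and 3. EOMES, ENO1 and SLC43A1 were lost each time.

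With probe set and filter taken from the H1299 arrays, SERINC2 reversed to 0.0036. ATF3, LOX, APOE, DDIT4, KLF4, CRH, IFI6, IFI27, TGFBI and KRT80 kept their calls in all 15 settings run on genes. OAS1, SPX, CHAC1, ISG15, TRIB3, HLA-B, PODXL and AXL lost theirs when only the 6 arrays were fitted. In that fit 15 of the 109 stayed called. With the mean of all probe sets 22 of 106 were lost: GATM, BMP6, SERPINE2, B2M, XBP1, HERPUD1, KLF2, LOXL2, P4HA2, FSTL1, DLC1, OCLN, ENO1, SMPDL3A, APOC1, IDI1, TXNRD1, GAL, TNFRSF10D, RTN2, SERINC2 and MAPDA. With no filter 14 of 109 were lost, with centred arrays 9 and with the replicate block 8. Deviations of ATPdead and WT arrays with the same replicate number under S2sh7 correlated at 0.281, -0.050 and 0.090 for replicates 1, 2 and 3. Replicate 1 correlated best with its own number, and replicates 2 and 3 did not. With the replicate number as a block, 388 genes were called between ATPdead and WT and 376 under shLuc.

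The comparison rests on 3 arrays per group of 1 hairpin and on spread pooled with 18 other arrays. Dim genes, 13 of the 444, are near the bottom of the array's range.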

Other observations

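Zinc finger genes of chromosome 19, most of which encode KRAB repressors of transposable elements, formed a group chosen after its values were seen. With ATPdead against WT under S2sh7, 10 of 200 tested were lower and 2 higher (median log2 fold change -0.04). Of all genes 1.41% were lower and 1.61% higher there. Under shLuc 15 of the 200 were lower and 0 higher (median -0.05), against 1.22% and 1.46% of all genes. The 5 lower under both were ZNF404, ZNF45, ZFP82, ZNF542P and ZFP30, with ZNF404 at -0.38 under S2sh7 and -0.52 under shLuc. In A549 under S2sh7, with 1 array per group, all 5 were higher with ATPase dead than with WT SMARCA4. In the same order the log2 differences were 0.29, 0.31, 0.84, 1.20 and 0.31. Of 230 zinc finger genes of other chromosomes 0 were lower and 3 higher under S2sh7 by limma. At an unadjusted p under 0.05 there were 12 each way, against 944 lower and 1325 higher of all 14695 genes. Of 881 other genes of chromosome 19, 10 were lower and 13 higher. With shLuc 0 of the 230 were lower and 2 higher, and 10 of the 881 were lower and 20 higher. In the knockdown 66 of the 200 fell and 12 rose, against 46 that fell and 9 that rose of the 230 on other chromosomes and 16.1% that fell and 13.6% that rose of all genes. In the comparison of ATPdead with BRD 1 of the 200 was lower and 1 higher, where 1.2% of all genes were lower and 1.69% higher. The sequences of these genes are similar, and their probe sets may not tell all of them apart.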
